A study of Canis lupus familiaris with 16 samples.

Results

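The peaks described here are those of healthy blood mononuclear cells, called once in libraries labelled L and once in libraries labelled M-H of the same dogs. All 44811 peaks of the healthy L list and all 19867 peaks of the healthy M-H list were taken, 64678 of the 145240 peaks in the series. A peak was shared when it overlapped a peak of the other list by at least 1 bp, and otherwise belonged to 1 list, as an L-only or an M-H-only peak. The lists came from MethylCap-seq, which captures methylated fragments of the genome before sequencing. A peak of reads in it marks methylated DNA.

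Both lists rest on 3 healthy dogs, a mixed-breed dog of 7 years, a golden retriever of 2 years and a standard poodle of 5 years. Mononuclear cells were separated from whole blood of each dog on a density gradient, and each dog gave 1 L and 1 M-H library. The sources used here do not say what L and M-H abbreviate. The other lists of the series hold tumour cells aspirated from lymph nodes of 5 dogs that had high-grade B-cell lymphoma. Of these a schnauzer, a mixed-breed dog and a dachshund were 10 years old, a golden retriever was 13 years old, and a dog of unstated breed was 5 years old. The authors deposited 1 list per peak group, so the dogs were combined and no value per dog was analysed here. A difference between the lists therefore has no replicate check and no test was run. Intervals in brackets are 95% Wilson intervals for shares and order-statistic intervals for medians, and cover counting error only.

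DNA methylation in mammals sits mostly on the cytosine of CpG dinucleotides. CpG islands are short stretches dense in CpG, often at gene starts, and most of them carry little methylation in healthy cells, whereas CpG-poor DNA in introns and between genes is mostly methylated. The borders of islands are called shores. In capture with a methyl-CpG binding domain, fragments with more methylated CpGs are held more tightly, and bound DNA can be released in steps of rising salt. Whether L and M-H name such steps is not stated.

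The L list was 2.26 times as long as the M-H list and covered 26.7 Mb, against 12.4 Mb in M-H. The deposited fold enrichment, the authors' own ratio for each peak, began at 6.002 in L and 6.005 in M-H. A locus without a peak can therefore still hold captured DNA below that value. Read depth per library is unknown, so a longer list and a deeper set of libraries cannot be told apart.

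Most L peaks had no M-H counterpart, while most M-H peaks had an L counterpart. Of the L peaks, 32079 (71.6%, 71.2 to 72.0) were L-only and 12732 (28.4%, 28.0 to 28.8) were shared. Of the M-H peaks, 12574 (63.3%, 62.6 to 64.0) were shared and 7293 (36.7%, 36.0 to 37.4) were M-H-only. With the L list cut to the length of the M-H list by fold enrichment, the shared share was 39.3% of L and 39.2% of M-H peaks. Neighbouring peaks that did not overlap were rare. A peak of the other list lay within 1 kb for 1.73% of L-only peaks and for 3.78% of M-H-only peaks.

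Shared peaks mostly lay one inside the other. The 12765 overlapping pairs had a median overlap of 526 bp, and their midpoints lay a median of 58.5 bp apart. In 85.0% of pairs the L peak was the wider, and in 64.0% the M-H peak lay wholly inside it, against 2.33% with the L peak inside the M-H peak. The median width in pairs was 765 bp in L and 577 bp in M-H. Fold enrichment ranked pairs only loosely alike in both lists (Spearman rho 0.26 across 12765 pairs, a description, since neighbouring bases and the same dogs underlie both values).

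As a ratio, M-H-only and L-only peaks differed more in the authors' flag for CpG islands than in that for shores. Of L-only peaks, 641 (2.00%, 1.85 to 2.16) carried it. Among shared peaks the share was 5.64% (5.25 to 6.05) by the L intervals and 9.003% (8.51 to 9.52) by the M-H intervals. Of M-H-only peaks, 1590 (21.8%, 20.9 to 22.8) carried it, so the share in M-H-only was 10.9 times that in L-only. Shores followed the same order, with 11.0% (10.7 to 11.4) of L-only, 34.4% and 31.1% of shared and 47.4% (46.2 to 48.5) of M-H-only peaks. Peaks with neither flag made up 87.0% of L-only, 60.0% and 59.9% of shared and 30.9% of M-H-only peaks. The intervals of L-only, shared and M-H-only peaks did not overlap for either flag.

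**Figure D1:**
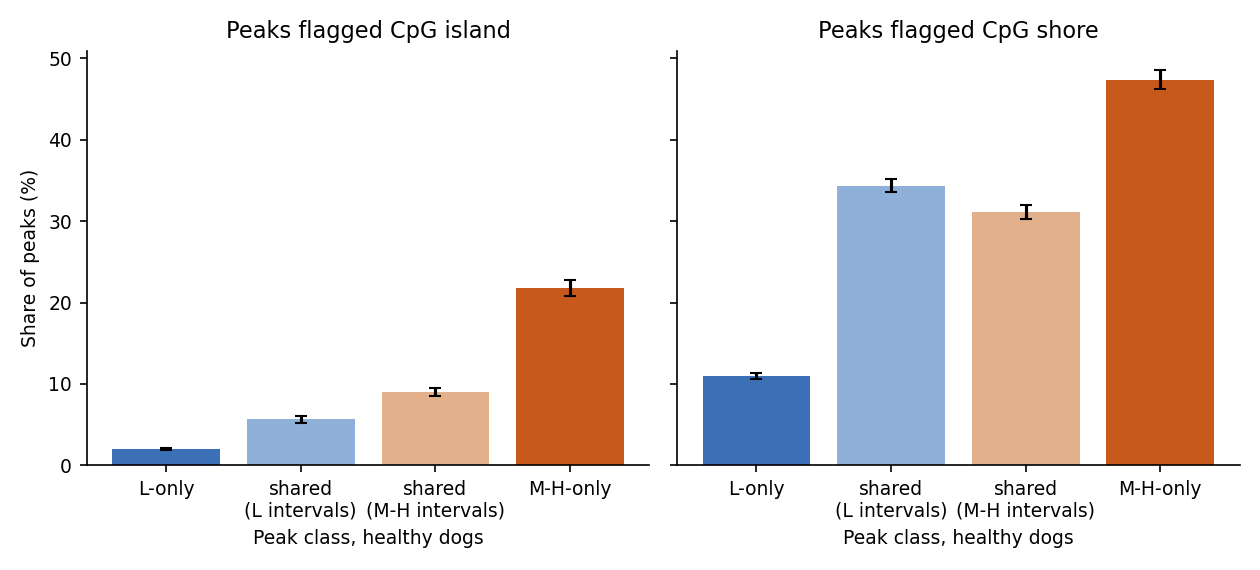
Share of peaks, in percent, that the authors flagged as CpG island (left) and CpG shore (right) in each peak class of the healthy dogs. Error bars are 95% Wilson intervals, and shared peaks are shown once by their L and once by their M-H intervals. Both shares were lowest in L-only peaks (2.00% and 11.0%) and highest in M-H-only peaks (21.8% and 47.4%).

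The order of the island shares was kept under each alternative tried. With the L list cut to equal length the shares were 2.03% in L-only and 18.3% in M-H-only peaks, a ratio of 9.03. Keeping only peaks enriched 8-fold or more, they were 2.53% and 16.3%, a ratio of 6.44. Narrow peaks have less room for a flag, and L-only peaks were the narrowest. Among peaks of at least 500 bp in both lists, a choice made after seeing the data, 3.43% of L-only and 23.5% of M-H-only peaks were flagged, a ratio of 6.86.

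Flags belong to the interval and not to the locus, which matters at shared sites. Of the 12765 pairs, 505 had the island flag in both lists, 217 in L only and 647 in M-H only. In all 647 of these the L interval was flagged as shore. The difference between 5.64% and 9.003% for the same loci is of this kind. Seen from the lists, 52.8% of 1359 L island peaks and 41.6% of 2722 M-H island peaks were shared. Outside islands and shores the order was the other way, with 21.5% of 35545 L peaks and 77.0% of 9780 M-H peaks shared.

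In each of the annotation categories M-H-only peaks were flagged as islands more often than L-only peaks. In introns 1.07% of 14160 L-only peaks and 18.7% of 2477 M-H-only peaks were in islands. Between genes the shares were 1.05% of L-only and 18.1% of M-H-only peaks. In coding sequence they were 4.30% (3.53 to 5.23) of 2208 L-only and 34.1% (31.1 to 37.4) of 870 M-H-only peaks. In 5' untranslated exons they were 8.59% of L-only and 39.0% of M-H-only peaks. Upstream of genes they were 7.54% of 2625 L-only and 27.1% of 658 M-H-only peaks. Shared peaks lay between the 2 one-list classes in each of these categories, by either interval.

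Examples of island peaks of 1 list were chosen after their values were seen, among those of highest fold enrichment with a named gene. Among L-only island peaks KDR, the main receptor of vascular endothelial growth factor, led with a fold enrichment of 15.2 (chromosome 13, 47485363 to 47485953, CanFam3.1, upstream of the gene). VOPP1 followed at 14.7 in coding sequence (chromosome 18, 6386703 to 6387137), and PTPRD, a receptor tyrosine phosphatase of neurons, at 14.5 in an intron (chromosome 11, 29608915 to 29609358). Among M-H-only island peaks AFG1L had 14.3, in a peak annotated downstream (chromosome 12, 65520096 to 65520998). NR5A2, a nuclear receptor of liver and pancreas, had 13.1 in an intron (chromosome 7, 2993299 to 2994154). EMILIN1, a glycoprotein of elastic fibres, had 12.8 in coding sequence (chromosome 17, 21075204 to 21075788). SLC37A2, a sugar phosphate transporter, had 12.0 in a peak annotated downstream (chromosome 5, 9383689 to 9384137). Fold values rank peaks within a list and are not compared between L and M-H.

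L-only peaks were more often intronic and M-H-only peaks more often coding. Introns held 44.1% (43.6 to 44.7) of L-only, 35.1% and 33.8% of shared and 34.0% (32.9 to 35.1) of M-H-only peaks. Coding sequence held 6.88% (6.61 to 7.17) of L-only, 6.32% and 8.79% of shared and 11.9% (11.2 to 12.7) of M-H-only peaks. Shared peaks were the most intergenic class, at 41.0% and 40.8%, against 31.4% of L-only and 33.1% of M-H-only peaks. Upstream peaks differed little, at 8.18% of L-only and 9.02% of M-H-only peaks. The authors' flag for a transcription start was rarest in L-only peaks, at 1.71%, against 4.57% and 4.35% of shared and 3.32% of M-H-only peaks. The enhancer flag was on 4.47% (4.25 to 4.70) of L-only, 2.89% and 2.94% of shared and 3.96% (3.54 to 4.44) of M-H-only peaks. Neither labels nor headers define the enhancer flag or the flag for a transcription start.

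**Figure D2:**
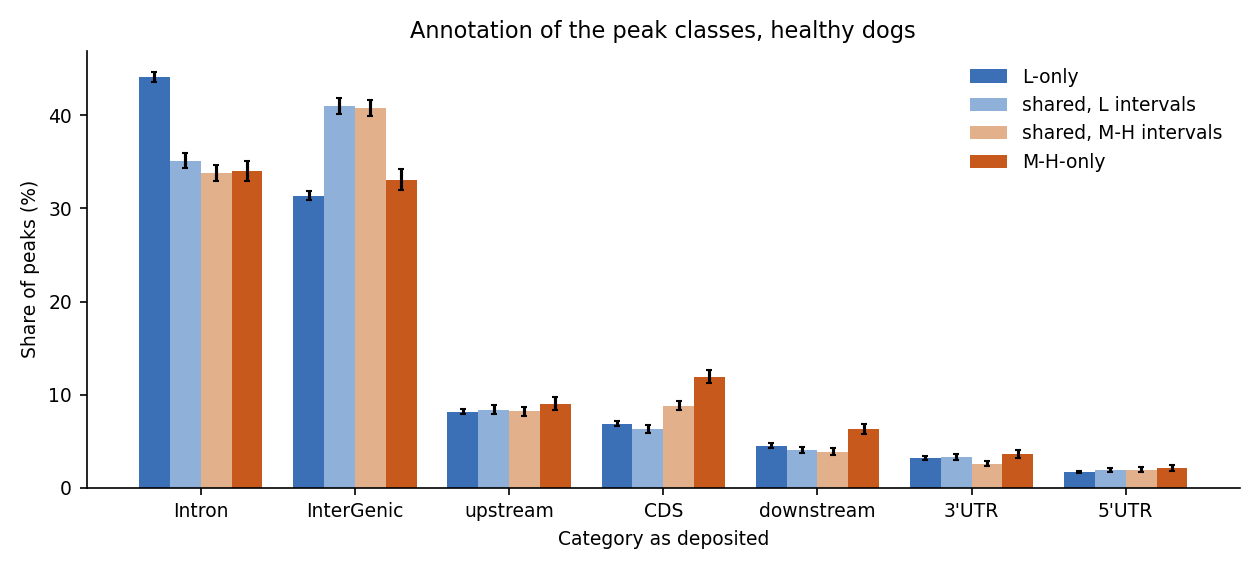
Share of peaks, in percent, in each annotation category as deposited, for the peak classes of the healthy dogs, with 95% Wilson intervals. Introns stood highest in L-only peaks (44.1%), intergenic DNA in shared peaks (41.0% and 40.8%) and coding sequence in M-H-only peaks (11.9%).

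Shared peaks were wider and more enriched than one-list peaks of the L list, and more enriched but not wider in the M-H list. In L the median width was 446 bp (445 to 448) for L-only and 764 bp (758 to 770) for shared peaks, and the median fold enrichment was 7.49 and 8.90. In M-H the median width was 573 bp (569 to 578) for shared and 565 bp (558 to 574) for M-H-only peaks, with overlapping intervals, and the median fold enrichment was 8.97 and 7.27. Among peaks enriched 8-fold or more the order of the M-H widths turned, with 615 bp for shared and 622 bp for M-H-only peaks. Width depended on the flag within M-H-only peaks, where island peaks had a median of 657.5 bp, shores 622 bp and the rest 467.5 bp. L-only peaks outside islands and shores were the narrowest set, at 438 bp.

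**Figure D3:**
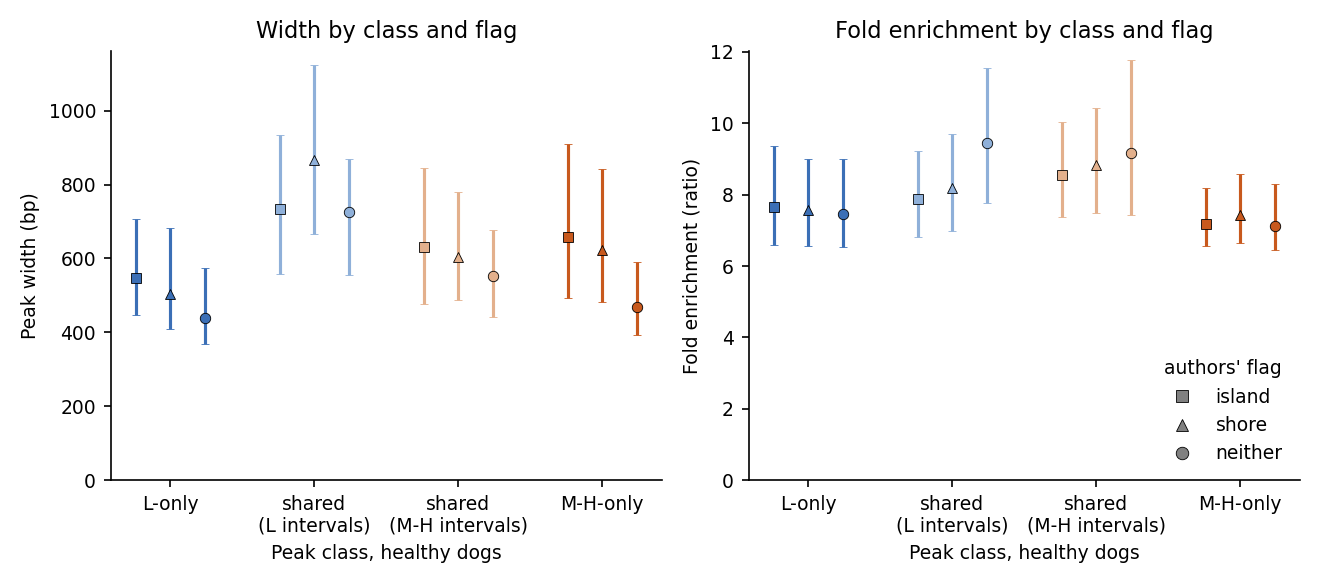
Median peak width in bp (left) and median fold enrichment (right) by peak class and by the authors' flag (square island, triangle shore, circle neither). Bars span the quartiles. L-only peaks were narrow under each flag (438 to 546 bp), and the shared peaks with neither flag had the highest fold enrichment in each list (9.45 in L, 9.15 in M-H).

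The share of shared peaks went with fold enrichment in both lists. Each list was split into 10 bins by fold, with 3705 to 5203 peaks per bin in L and 1959 to 2004 in M-H. Of L peaks, 12.0% in the lowest bin (fold up to 6.19) and 52.6% in the highest (fold of 11.5 or more) had an M-H counterpart. In M-H the shares were 34.7% in the lowest bin (up to 6.38) and 94.0% in the highest (12.4 or more). The share did not climb at each step in M-H, since the second bin had 52.5% and the third 40.6%. By width the lists parted. In L 3.75% of the narrowest bin (341 bp or less) and 65.8% of the widest bin (956 bp or more) were shared. In M-H the share was 58.5% in the narrowest bin, 71.4% in the seventh and 44.0% in the widest.

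Within M-H the most enriched peaks were mostly outside islands. The island flag was on 18.2% (16.5 to 19.9) of the lowest bin of M-H peaks by fold, 12.3% of the eighth and 3.13% (2.45 to 3.996) of the highest. In L it stayed between 2.71% and 3.62% over the lower 9 bins and was 1.63% (1.30 to 2.04) in the highest. Among the widest M-H peaks 30.2% were in islands and 60.4% in shores.

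**Figure D4:**
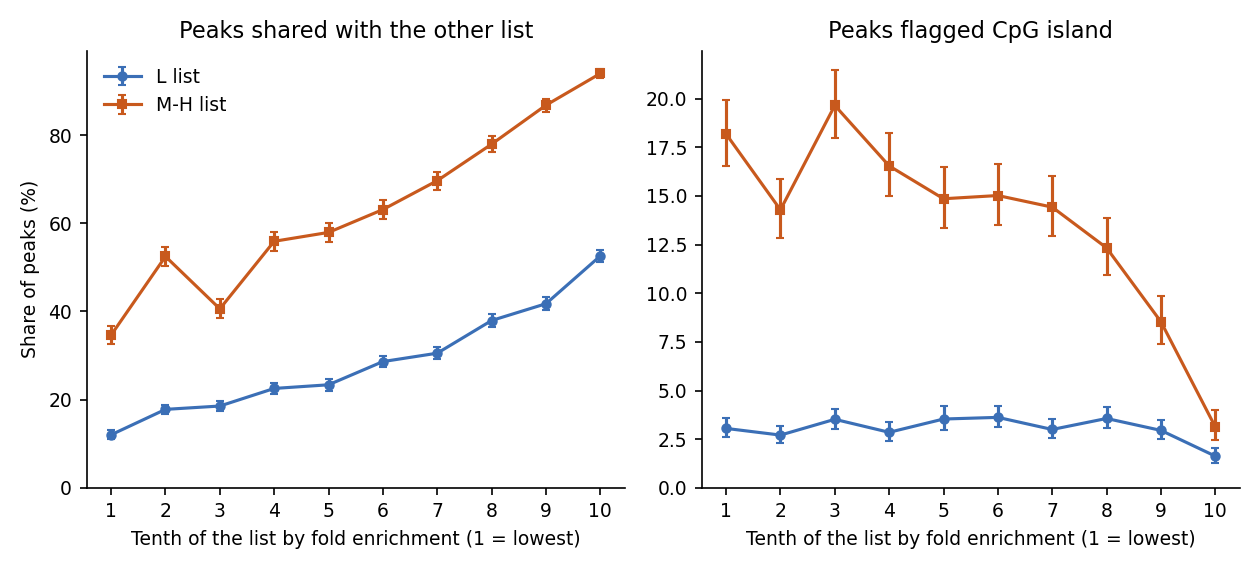
Share of peaks, in percent, that overlap a peak of the other list (left) and that carry the island flag (right), in 10 bins of the list by fold enrichment, for the L list (circles) and the M-H list (squares) of the healthy dogs. Error bars are 95% Wilson intervals. Sharing was highest in the top bin of both lists (52.6% of L, 94.0% of M-H), where the island share was lowest (1.63% of L, 3.13% of M-H).

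The strongest single peaks were mostly outside islands, as were most peaks of each class. The 5 L-only peaks of highest fold had values of 18.8 to 20.8 and none was in an island, against 2.00% of all L-only peaks. They were 3 intergenic peaks, a 3' untranslated exon of an uncharacterised locus, and a shore at -3117 bp from the start of CHAMP1, a protein of chromosome alignment in mitosis (fold 19.5, chromosome 22, 61381229 to 61381629). The highest, at 20.8, lay between genes on chromosome 14, 21895963 to 21896463, and the nearest M-H peak was 16770 bp away. The M-H-only peak of highest fold had 19.8 (chromosome 8, 13423731 to 13424215), a shore downstream of the transfer RNA gene TRNAY-GUA, with an L peak 5593 bp away. The next 4 M-H-only peaks had 16.2 to 17.9, and 3 of them were intergenic.

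Among shared peaks the highest fold in M-H was 26.4, upstream of LOC102154048 and of DENND1B, an activator of Rab35 (chromosome 7, 5007020 to 5007510). The L peak there had 29.6 (5007031 to 5007490). DEGS1, which makes ceramide from dihydroceramide, had an island peak at -4312 bp from its start with 31.6 in L (chromosome 7, 40156533 to 40156994) and 26.2 in M-H (40156503 to 40157003). SLC12A8 had 17.3 in L and 24.2 in M-H, in an intron (chromosome 33, 28194753 to 28195421). MDH1B had 23.6 in L and 23.9 in M-H, in an intron.

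Genes were named here for being among the 5 with the most L-only, shared or M-H-only peaks. How their peaks split over the classes follows in part from this choice. Over the whole lists 32079 peaks were L-only and 7293 were M-H-only. WWOX, an oxidoreductase gene at a fragile site, had 32 L-only, 6 shared and 2 M-H-only peaks. PRKG1, the cGMP-dependent kinase, had 29 L-only, 3 shared and 8 M-H-only peaks. NAV2 had 28 L-only, 8 shared and 12 M-H-only, TENM4, a teneurin of synapses, 27 L-only, 6 shared and 0 M-H-only, and NTM, neurotrimin, 26 L-only, 4 shared and 9 M-H-only peaks. CSMD1 had the most shared peaks of the named genes, 16, beside 23 L-only and 16 M-H-only. The ephrin receptor genes differed from each other, with 3 L-only, 12 shared (11 M-H peaks) and 0 M-H-only peaks in EPHA6, and 5 L-only, 10 shared and 8 M-H-only peaks in EPHA3. CNTN5, a contactin of axons, had 10 L-only, 11 shared and 1 M-H-only peaks, and ANKS1B 12 L-only, 9 shared and 4 M-H-only peaks.

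Of the genes chosen for the most M-H-only peaks, PTPRN2, AGAP1 and SLIT2 also had more M-H-only than L-only peaks. PTPRN2, a phosphatase-like protein of secretory granules, had 5 L-only, 3 shared and 13 M-H-only peaks. AGAP1, which acts on the small GTPase Arf1, had 5 L-only, 2 shared and 12 M-H-only peaks, and the axon guidance ligand SLIT2 had 4 L-only, 7 shared and 12 M-H-only peaks. Of 558 genes with at least 10 peaks in both lists together, 42 had more M-H-only than L-only peaks. DLGAP2 and SHANK2, both of the postsynaptic density and named after their values were seen, each had 11 M-H-only peaks, beside 3 L-only peaks in DLGAP2 and 4 in SHANK2. Gene lengths were not used, and the part of gene size in these counts was not tested. Over all 15229 genes with an assigned peak in either list, 7271 had L-only peaks and no M-H peak, 1505 had M-H-only peaks and no L peak, and 5399 had a shared peak.

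Gene starts were then compared. Promoters were taken as 1 kb either side of the transcription start, and 18147 genes were measured. Any overlapping peak was counted, whichever gene it was assigned to. A start was known only for a gene assigned a peak in at least 1 of the 4 lists of the series. Genes without any peak are therefore missing from every denominator, which raises every promoter share. For example, 9 of 20 listed natural killer and cytotoxic markers and 20 of 30 B-cell markers were measured. Of the 18147 genes, 2180 had a promoter peak in L only (12.0%), 1323 in both lists (7.29%) and 652 in M-H only (3.59%), together 22.9%. With the L list cut to equal length the order turned, with 988 genes in L only and 1241 in M-H only. Island peaks were on 13.3% (11.9 to 14.7) of L-only promoters, 20.7% (by L) and 26.0% (by M-H) of promoters in both, and 35.0% (31.4 to 38.7) of M-H-only promoters. These shares are those of the peak of highest fold at each promoter. That peak spanned the start itself in 24.9% (23.1 to 26.8) of L-only, 47.5% (by L) and 45.7% (by M-H) of promoters in both, and 37.6% (33.9 to 41.4) of M-H-only promoters. The part of peak width in the spans was not tested.

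L-only promoters were led by MIR1343, a microRNA gene, at a fold enrichment of 16.8 (chromosome 18, 32989881 to 32990368, across the start). TRPV1, the ion channel that senses heat and capsaicin, had 16.2 in the 5' untranslated exon (chromosome 9, 47443027 to 47443660). POLR2D, a subunit of RNA polymerase II, had 15.5 (chromosome 19, 22753173 to 22753745, a shore 373 bp from the start). CA2, a carbonic anhydrase, had 15.5 in a shore 807 bp from the start. AGTR1, the receptor of angiotensin II, had 14.8, and DIO1, which activates thyroid hormone, had 14.7 in coding sequence across the start (chromosome 5, 55098286 to 55098722). IQCF6, KDR, TPD52 and TLCD2 completed the leading 10, at 15.1 to 15.3 (TLCD2 15.1, IQCF6 15.3). Of the 10, the KDR peak alone was in an island and 5 were shores. The TLCD2 peak ended 954 bp from the start, near the edge of the window.

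M-H-only promoters were led by MIR8834A-1 at 12.4 (chromosome 12, 40720016 to 40720739). YIPF7 had 12.0 across the start (chromosome 13, 41181495 to 41182139). YBX2, an RNA-binding protein of germ cells, had 11.8 in an island across the start (chromosome 5, 32249602 to 32250226). PNLDC1, which trims piRNAs in germ cells, had 11.8 in an island across the start (chromosome 1, 49044973 to 49045687). ELN, the gene of elastin, had 11.5 in a shore 26 bp from the start (chromosome 6, 6330852 to 6331399). FTH1, the ferritin heavy chain, had 11.2 in an island (chromosome 11, 39037324 to 39037740). MTA2 had 11.5 and COPS8 11.2, and PNO1 and WDR92 shared 1 peak with 11.4. Of the 10 genes, 3 had island peaks and 6 shore peaks.

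Promoters in both lists were ranked by the lower of their 2 percentiles of fold. DENND1B had 29.6 in L and 26.4 in M-H. PGD, an enzyme of the pentose phosphate pathway, had 26.6 in L (chromosome 2, 85408839 to 85409322) and 23.8 in M-H (85408838 to 85409328). FXYD5, a regulator of the sodium pump, had 19.7 in L and 22.2 in M-H, and LHFPL4, a protein of inhibitory synapses, 17.9 in L and 19.8 in M-H. SH3GLB1, endophilin B1, had 25.6 in L and 17.9 in M-H. RNF17, a tudor-domain protein of male germ cells, had 13.7 in L (chromosome 25, 18727649 to 18728407) and 12.6 in M-H (18727718 to 18728377), across the start in both. PLEKHG5, PSKH2, MIR8799D and MIR8791A completed the 10, with 11.7 to 13.5 in L (MIR8791A 11.7, PLEKHG5 13.5). None of the 10 was flagged as an island in either list.

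MicroRNA genes were frequent among these leaders, and their counts, chosen after seeing the data, were high in all calls. Of 164 measured MIR genes, 35 (21.3%) were in L only, 25 (15.2%) in both and 16 (9.76%) in M-H only, against 12.0%, 7.29% and 3.59% of all genes. A peak at a microRNA start can also lie in a host or neighbouring gene. Of 205 zinc finger genes named ZNF, 27 (13.2%) were in L only, 5 (2.44%) in both and 3 (1.46%) in M-H only. Of 6101 uncharacterised LOC genes, 28.7% had a promoter peak, against 22.9% of all genes, with 13.7% in L only, 10.1% in both and 4.87% in M-H only. A gene was measured only if a peak was assigned to it. Whether this raised the shares of short genes, such as microRNA genes, more than those of all genes was not tested.

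Germline genes, many of which somatic cells keep silent by methylating their promoters, had by far the most promoter peaks of the 12 gene lists. Of 57 measured members, 12 were in L only (21.1%), 22 in both (38.6%) and 9 in M-H only (15.8%). The shares of all genes were 12.0%, 7.29% and 3.59%. Among the members in both lists the highest fold in M-H was that of SMC1B, a meiotic cohesin (7.19 in L, 14.4 in M-H, island in both). TDRD1, a tudor-domain protein of the piRNA pathway (7.77 in L, 14.0 in M-H), and RNF17 followed. DDX4, a germ cell RNA helicase named after its value was seen, had 11.9 in L (chromosome 2, 43026034 to 43026922) and 11.6 in M-H (43026132 to 43026685). L-only were NANOS2, a factor of male germ cells (14.4, coding sequence, chromosome 1, 109716738 to 109717285), TERB2, the partner of TERB1 (12.6), and TEX14, a protein of germ cell bridges (11.4, in a peak assigned to RAD51C). M-H-only were CTCFL, a testis paralogue of CTCF (10.7, chromosome 24, 42506872 to 42507366), the germ cell gene ASZ1 (9.58) and GTSF1, a piRNA pathway protein (9.50). SPO11, which makes the DNA breaks of meiosis (9.42), and REC8, the meiotic cohesin (9.03), were M-H-only with island peaks across the start, and were named after their values were seen. The balance of the one-list members depended on the setting. At equal list length 10 were in L only and 18 in M-H only, against 988 and 1241 of all genes. Among peaks enriched 8-fold or more 12 were in L only and 13 in M-H only, against 1299 and 579 of all genes. With promoters of 500 bp either side 11 were in L only and 11 in M-H only, against 1449 and 541 of all genes.

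Imprinted genes, of which only 1 parental copy is expressed and which carry methylation on 1 allele at control regions, were also counted. Of 32 measured members, 2 were in L only (6.25%), 4 in both (12.5%) and 4 in M-H only (12.5%), against 12.0%, 7.29% and 3.59% of all genes. M-H-only were the potassium channel KCNK9 (10.8, coding sequence in an island, chromosome 13, 34473485 to 34474340), TRAPPC9 (10.6), MEST, a hydrolase-like protein (6.56, island, chromosome 14, 6453769 to 6454301), and NNAT, neuronatin (6.28, island across the start, chromosome 24, 26119125 to 26119743). L-only were NDN, necdin (8.37, island across the start, chromosome 3, 36313960 to 36315065), and ZNF597 (6.95). NAP1L5, MAGEL2, TFPI2 and DIO3 were in both. In the alternatives the members in L only and in M-H only numbered 2 and 3 among peaks enriched 8-fold or more, 1 and 6 at equal length and 1 and 3 with promoters of 500 bp either side. At equal length all genes also had more promoters in M-H only (1241) than in L only (988). In L only and in M-H only, all genes numbered 1299 and 579 among peaks enriched 8-fold or more. They numbered 1449 and 541 with promoters of 500 bp either side.

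HOX genes, which set position along the body axis, had more L-only than M-H-only promoters, as had all genes. Of 28 measured members, 6 were in L only (21.4%), 2 in both (7.14%) and 1 in M-H only (3.57%), against 12.0%, 7.29% and 3.59% of all genes. HOXB6 (10.6), HOXD3 (9.02) and HOXC13 (8.59, island) led the L-only members, and HOXB4 (11.0 in L, 8.09 in M-H) and HOXD1 (9.83 in L, 11.5 in M-H) were in both. HOXA4 was M-H-only, at 6.64 in an island in coding sequence. L-only members outnumbered M-H-only members under each of the 3 alternatives, by 3 to 1 at equal length. Of 99 other developmental transcription factors, 6 were in L only (6.06%), 1 in both and 2 in M-H only (2.02%), and 90 were without one in L and M-H alike. MSX2 (8.18) and ALX4 (7.98) were L-only, SOX10 (10.3) and BNC1 (7.95) M-H-only, and CDX1 in both (8.91 in L, 10.8 in M-H). This order turned at equal length and with promoters of 500 bp either side, with 1 in L only and 2 in M-H only each time. All genes had 988 in L only and 1241 in M-H only at equal length, and 1449 and 541 with promoters of 500 bp.

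Markers of blood cells mostly lacked a promoter peak, as did 77.1% of all measured genes. Of 27 T-cell markers, 1 was in L only, 2 in both and 1 in M-H only. TCF7, a transcription factor of naive T cells, was in both (6.87 in L, 8.14 in M-H), as was FOXP3, the factor of regulatory T cells (6.54 in L, 7.01 in M-H, island). The TCF7 peaks lay 880 bp (L) and 944 bp (M-H) from the start. With promoters of 500 bp either side, 1 T-cell marker was in both. CD5 (6.91) was L-only and SH2D1A (6.68) M-H-only. Of 20 B-cell markers, 2 were L-only, among them POU2AF1 (9.41), a coactivator of B cells, and FCER2 (8.43) was M-H-only. None of 9 natural killer and cytotoxic markers had a promoter peak. Of 14 monocyte markers, the inflammasome sensor NLRP3 (7.24) and the myeloid and B-cell factor SPI1 (6.34) were L-only. Of 12 granulocyte markers CTSG (7.24 in L, 7.81 in M-H) and EPX (7.62 in L, 6.62 in M-H) were in both. The CTSG peaks lay 658 bp (L) and 904 bp (M-H) from the start, and the EPX peaks 940 bp in each list. With promoters of 500 bp either side, no granulocyte marker was in both. Of 14 platelet and erythroid markers 3 were L-only, among them EPOR (7.78) and GP9 (6.66), and HBM (8.97, in a peak assigned to LOC100855558) was M-H-only. All these lists are short. The labelled cell type could not be checked against these markers, since a peak in a mixture of cells does not show which cells carried the methylation.

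A promoter peak lay at 5 of 24 housekeeping genes and at 5 of 17 DNA methylation enzymes, readers and related genes, against 22.9% of all genes. Of the housekeeping genes, 2 were L-only, among them CHMP2A (8.58, in a peak assigned to LOC100856086). RPL32 (10.2 in L, 7.04 in M-H) and RPL13A (7.15 in L, 6.25 in M-H) were in both, and the X-linked HPRT1 (6.08, island across the start) was M-H-only. Of the enzymes, readers and related genes, TET3 (7.98, in a peak assigned to LOC111090655, 751 bp from the start) was L-only. So was IDH2, a mitochondrial isocitrate dehydrogenase (6.33, 891 bp from the start). With promoters of 500 bp either side neither was L-only. TET2, which oxidises methylcytosine, was in both (14.7 in L, 8.16 in M-H, a shore), as was the methyltransferase DNMT3A (7.51 in L, 7.28 in M-H). The TET2 peaks lay 784 bp (L) and 830 bp (M-H) from the start. With promoters of 500 bp either side, 2 of the enzymes, readers and related genes were in both. ZBTB4, a reader of methylated DNA, was also in both (11.1 in L, 7.28 in M-H, the M-H peak assigned to POLR2A). No enzyme, reader or related gene was M-H-only, against 3.59% of all genes, and at equal list length 1 was.

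**Figure D5:**
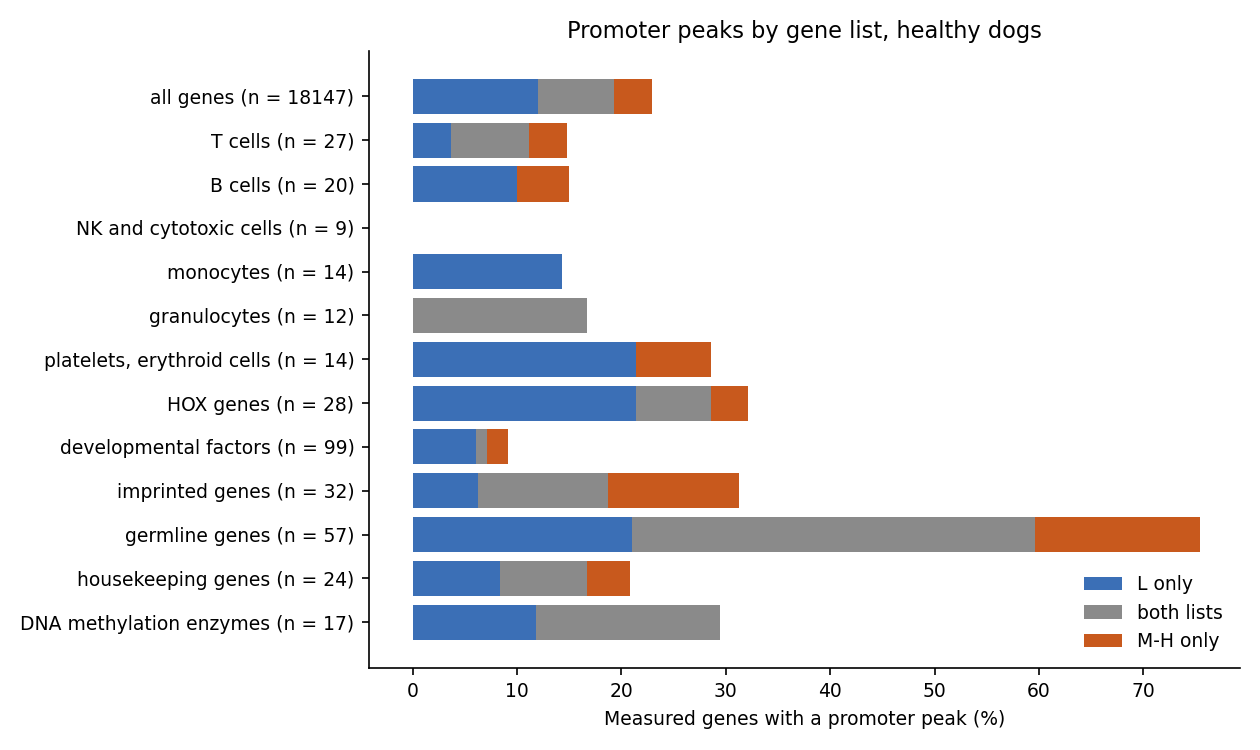
Share of measured genes, in percent, with a promoter peak in L only, in both lists or in M-H only of the healthy dogs, for all 18147 genes and for 12 gene lists (n in brackets). Germline genes had promoter peaks in 21.1% (L only), 38.6% (both) and 15.8% (M-H only) of members, against 12.0%, 7.29% and 3.59% of all genes.

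Position along the chromosome also differed. Of autosomal peaks, 6.19% (5.92 to 6.46) of L-only, 6.54% and 6.60% of shared and 15.4% (14.5 to 16.2) of M-H-only peaks lay in the last 3 Mb before the most distal peak of the chromosome. Within M-H-only peaks the distal share was 19.3% (17.4 to 21.4) of island peaks, 17.5% of shores and 9.25% (8.09 to 10.6) of peaks with neither flag. L-only peaks with neither flag had 6.13% (5.85 to 6.42). The X chromosome held 3.19% (3.01 to 3.39) of L-only, 6.39% and 6.42% of shared and 4.80% (4.33 to 5.31) of M-H-only peaks. Of its L peaks 44.3% were shared, against 20.3% to 38.1% on the autosomes. The M-H peaks of chromosome 32 were shared in 91.1% of cases, with 16 M-H-only peaks, and those of chromosome 38 in 48.4%, with 81.

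The lymphoma lists placed the classes further. Of healthy L-only peaks, 51.9% (51.4 to 52.5) overlapped a lymphoma L peak and 19.9% a lymphoma M-H peak, and 47.6% overlapped neither. Of healthy shared peaks, by their L intervals, 97.0% overlapped a lymphoma L peak and 93.1% a lymphoma M-H peak. Of healthy M-H-only peaks, 62.8% overlapped a lymphoma L peak, 85.9% (85.1 to 86.7) a lymphoma M-H peak and 10.8% neither. So 4578 of 7293 loci that were M-H-only in healthy dogs had an L peak in the lymphoma dogs. The L peaks of the lymphoma dogs were themselves shared with M-H in 63.2%, and the M-H peaks with L in 82.1%. The island share within lymphoma was 2.12% of L-only, 5.83% and 6.38% of shared and 17.1% of M-H-only peaks, in the same order as in the healthy dogs. The difference between the dogs was not tested, since each group has 1 list per library label, and tissue and age differ with the disease.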

How the data were processed

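Genomic DNA of 3 healthy dogs was captured, made into libraries and sequenced as paired ends, per the labels' protocols. Per the submitters' processing notes, BWA, MACS2 and CanFam3.1 were used, with no version or role given. The fold enrichment is a ratio deposited by the authors, and so are the distance to the transcription start in bp (another unit deposited by the authors), the annotation and the flags, per the file headers. Peak starts were read as 0-based and are printed 1-based. Gene fields were displaced in 2 rows of the L list, which were treated as intergenic. Transcription starts were recovered from peak start, strand and distance over all 4 lists, giving 1 start for 18111 of 18147 symbols. Overlaps, shares and medians were computed with Python 3.11.15, numpy 2.4.6, pandas 2.3.3 and scipy 1.17.1, and the overlap and promoter steps were tested on simulated data. Named promoters are the 10 of highest fold per call, named peaks the 5 of highest fold per class, and members of gene lists the 3 of highest fold per list and call. Others were named after their values were seen, including all members of imprinted calls, and some list members are not reported here. The gene lists come from textbook knowledge, and these, the members and the alternatives were chosen with earlier results of these data known. The CpG content of promoters was planned and not run, since no sequence of this build was used here. Depth is unknown, and intervals cover counting error only.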

Additional observations from a re-analysis of the deposited data

Results flagged for a closer look

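For 3 gene lists the balance of one-list promoters had opposite directions in lymphoma and in healthy dogs. Each value is the number of L-only minus the number of M-H-only members within a group of dogs, and the difference between the groups was not tested. HOX genes stood at -6 in lymphoma and at 5 in healthy dogs. Developmental transcription factors stood at -19 in lymphoma and at 4 in healthy dogs. Platelet and erythroid markers stood at -2 in lymphoma and at 2 in healthy dogs. Over all measured genes 1288 were L-only and 808 M-H-only in lymphoma, against 2180 and 652 in healthy dogs. With the healthy L list cut to equal length, L-only members outnumbered M-H-only members for HOX genes, with 3 and 1, but not for developmental factors, with 1 and 2, or platelet and erythroid markers, with 1 and 1. All genes then had 988 in L only and 1241 in M-H only. With promoters of 500 bp either side, developmental factors in healthy dogs had 1 and 2, HOX genes 3 and 1, and the markers 2 and 1. The lymphoma lists were not cut to equal length. All 3 lists are small, tissue, age and disease differ together, and read depth is unknown.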

How the results depend on the processing

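Asking for an overlap of 0.5 of the shorter peak left all shares, medians and orders within the main values' intervals. Among peaks enriched 8-fold or more, 27.4% of L and 54.5% of M-H peaks were shared. Island shares were then 2.53% of L-only, 3.77% (L intervals) and 6.08% (M-H intervals) of shared and 16.3% of M-H-only peaks, and shore shares 14.1%, 28.0%, 25.9% and 48.7% in that order. Median widths were 514 bp, 783 bp, 615 bp and 622 bp, and median folds 9.46, 10.3, 10.8 and 9.38. Promoters in L only numbered 1299 and in both 535. With the L list cut to equal length (fold of 8.18 or more), 39.3% of L and 39.2% of M-H peaks were shared. Island shares were then 4.06% (L) and 6.51% (M-H) of shared and 18.3% of M-H-only peaks, and shore shares 28.1%, 25.8% and 44.4%. Median widths in L were 493 bp for L-only and 755 bp for shared peaks. Median folds were 9.58 for L-only, 10.3 (L) and 9.55 (M-H) for shared and 7.58 for M-H-only peaks. Promoters numbered 988 in L only, 734 in both and 1241 in M-H only. Counting peaks within 1 kb as shared gave 29.7% of L and 64.7% of M-H peaks, 10.3% shores in L-only peaks, and for shared L peaks a median width of 753 bp and fold of 8.76. With promoters of 500 bp either side, 1449 genes were in L only. Among peaks of at least 500 bp, an alternative chosen after seeing the data, island shares were 3.43% of L-only, 10.2% of shared (M-H intervals) and 23.5% of M-H-only peaks, and shore shares 18.1%, 40.2% (L), 35.9% (M-H) and 49.5%. The cause of these shifts was not tested. Island and shore shares kept the order L-only, shared, M-H-only in every setting run. No paired analysis was possible because each list combines the dogs and carries no replicate. Leaving out a dog, and the CpG content of promoters, were not run for want of lists per dog and of sequences. Depth is unknown, and loci below a fold of 6 are not listed.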

Other observations

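Genes called in healthy dogs were also looked up in the lymphoma lists. Of the 2180 genes with an L-only promoter in healthy dogs, 633 were L-only in lymphoma, 883 had peaks in both lymphoma lists, 43 were M-H-only and 621 had none. Of the 652 genes with an M-H-only promoter in healthy dogs, 15 were L-only in lymphoma, 406 had peaks in both lymphoma lists, 167 were M-H-only and 64 had none. Of all 18147 measured genes, 7.10% were L-only in lymphoma, 24.4% were in both lymphoma lists, 4.45% were M-H-only and 64.1% had none. Of the 43 genes that were L-only in healthy and M-H-only in lymphoma dogs, only those in the gene lists are named. They were EPOR, the erythropoietin receptor, HOXC12, MSX2 and ALX4. The healthy L peaks of MSX2 and ALX4 lay 854 bp and 924 bp from the start, near the edge of the window.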
